A study of Rattus norvegicus with 16 samples.

Results

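The genes described here are Ampd3 and 9 other genes of adenine nucleotide breakdown and purine salvage, namely Ampd2, Ada, Adk, Nt5e, Entpd1, Pnp, Xdh, Hprt1 and Aprt. These 10 genes, of 32623 in the count table, were found by their symbols, and each symbol had 1 row. They were chosen by the measured pattern of Ampd3, which was higher in NRK-49F cells and lower in NRK-52E cells at pH 6.0, so the values of Ampd3 are given as a description without any test. NRK-52E is an epithelial line and NRK-49F a fibroblast line, both from normal rat kidney, and each is a single established line. In the study, NRK-52E cells on permeable filter inserts shared the medium with NRK-49F cells growing in the wells beneath, so that a response to acid could be followed in both lines under co-culture. After 24 h without serum, the cultures were kept for 48 h at pH 7.4 or pH 6.0, and poly(A)-enriched RNA of each line was sequenced. The sample labels write these media as pH 7 and pH 6. There were 4 libraries in each of the 4 groups: NRK-52E at pH 7.4, NRK-52E at pH 6.0, NRK-49F at pH 7.4 and NRK-49F at pH 6.0, and all of them came from co-culture.

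Inside cells, AMP leaves the adenine nucleotide pool along either of 2 routes. AMP deaminases turn it into IMP and release ammonia, whereas 5'-nucleotidases remove its phosphate to give adenosine, which adenosine deaminase converts to inosine or adenosine kinase returns to AMP. Purine nucleoside phosphorylase then frees hypoxanthine, which xanthine dehydrogenase oxidises towards uric acid or a phosphoribosyltransferase salvages, and in the kidney extracellular adenosine made by the ecto-enzyme encoded by Nt5e acts on blood flow and tubular transport.

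The libraries held 17760185 to 20612657 counted fragments in NRK-52E cells at pH 7.4 and 16844811 to 23856187 at pH 6.0. In NRK-49F cells they held 17518187 to 27607214 at pH 7.4 and 16201084 to 34784862 at pH 6.0. Levels are FPM (fragments of a gene per 1000000 counted, with TMM factors over the 16 libraries) and are not corrected for gene length, so they are compared between libraries and not between genes. A gene was called where its false discovery rate (FDR) was below 0.01 in both edgeR and DESeq2, and adjusted p-values below are Benjamini-Hochberg values over all genes tested. Nothing in the labels says that the libraries of a group came from separate cultures, so p-values measure only the spread between these samples, which may be technical. Each library name also holds another number, here called the second number, whose meaning is not given, 21 or 22 in NRK-52E and 20 or 21 in NRK-49F, with 2 libraries for each number and pH.

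The labelled cell types were checked against 12 epithelial and 12 fibroblast markers, and the epithelial label of NRK-52E was only partly borne out. Ocln, a tight junction gene, had 41.15 FPM ± 2.04 (SD, n = 4) in NRK-52E at pH 7.4 and 0 counts in all NRK-49F libraries at that pH. At pH 6.0 it averaged 9.67 FPM in NRK-52E and 0.099 FPM in NRK-49F. However, Epcam stayed at or below 0.0286 FPM in every group mean, Cdh1 reached 1.62 FPM in NRK-52E at pH 7.4 and 0.315 FPM at pH 6.0, and Esrp1 had 0 counts in all 16 libraries. The summed epithelial list, most of which came from Krt8 in all groups, was 435.7 to 510.9 FPM in NRK-52E at pH 7.4 and 302.5 to 366.1 FPM at pH 6.0, against 789.8 to 952.5 FPM and 202.4 to 223.9 FPM in NRK-49F. At least 1 FPM on average was reached by 5 and 3 of the 12 epithelial markers in NRK-52E and by 3 and 3 in NRK-49F, at pH 7.4 and pH 6.0. The summed fibroblast list was 7161 to 7598 FPM in NRK-52E at pH 7.4, where Col3a1 alone had 6222 FPM, and 2390 to 3772 FPM at pH 6.0. In NRK-49F it was 14100 to 15600 FPM at pH 7.4, of which Vim gave 7108 FPM, and 10530 to 12400 FPM at pH 6.0, of which Col1a1 gave 8288 FPM. Of the 12 fibroblast markers, 7 reached 1 FPM in both NRK-52E groups and 9 in both NRK-49F groups, and Thy1 had 0 counts in all 16 libraries. The lines were still separate in their RNA, but not always in the direction of their labels. Pdgfra, a fibroblast receptor gene, averaged 0.287 FPM in NRK-52E and 391.9 FPM in NRK-49F at pH 7.4. Col3a1, from the same list, went the other way, with 6222 FPM in NRK-52E and 458 FPM in NRK-49F at pH 7.4. At pH 6.0 it had 2630 FPM and 53.9 FPM. The lines are therefore called by name, and the part that the fall of both marker sums at pH 6.0 has in the results was not tested. In bulk RNA, fewer cells of a type and less RNA per cell cannot be told apart.

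Ampd3, which encodes the AMP deaminase isoform first known from red blood cells, moved in opposite directions in the 2 lines. In NRK-52E cells at pH 7.4 its levels were 19.3, 20.3, 26.3 and 23.0 FPM in libraries N1, N2, N5 and N6. At pH 6.0 they were 8.81, 6.56, 8.20 and 8.32 FPM in N3, N4, N7 and N8. All NRK-52E libraries at pH 6.0 thus lay below all those at pH 7.4, and the log2 fold change was -1.50 (SE 0.16). In NRK-49F cells at pH 7.4 the levels were 2.80, 3.94, 3.42 and 3.518 FPM in N9, N10, N13 and N14, from 49 to 89 counts. At pH 6.0 they were 92.05, 96.8, 158 and 201.2 FPM in N11, N12, N15 and N16. The pH groups of NRK-49F were far apart, with a log2 fold change of 5.30 (SE 0.27), and the log2 difference between the pH effects of the 2 lines was 6.82 (SE 0.32). These values chose the genes and carry no test.

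Ranked by mean level, NRK-49F at pH 6.0 came first with 137 FPM ± 52.3 (SD, n = 4), followed by NRK-52E at pH 7.4 with 22.2 FPM ± 3.15, NRK-52E at pH 6.0 with 7.97 FPM ± 0.976 and NRK-49F at pH 7.4 with 3.42 FPM ± 0.471. No neighbours in this order overlapped. At pH 7.4 Ampd3 was therefore lower in NRK-49F than in NRK-52E, and at pH 6.0 it was higher, with log2 differences of -2.78 (SE 0.16) and 4.12 (SE 0.26). The NRK-49F libraries at pH 6.0 were split by their second number, with a mean of 94.4 FPM for number 20 and 180 FPM for number 21. The mean depth of these pairs was 20036884 and 34549626 counts, and the part of depth or number in the split was not tested. Taken within one number, a comparison added after the values were seen, the log2 fold change was 4.80 for number 20 and 5.67 for number 21. The pair of numbers at pH 7.4 had means of 3.37 and 3.47 FPM.

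**Figure D1:**
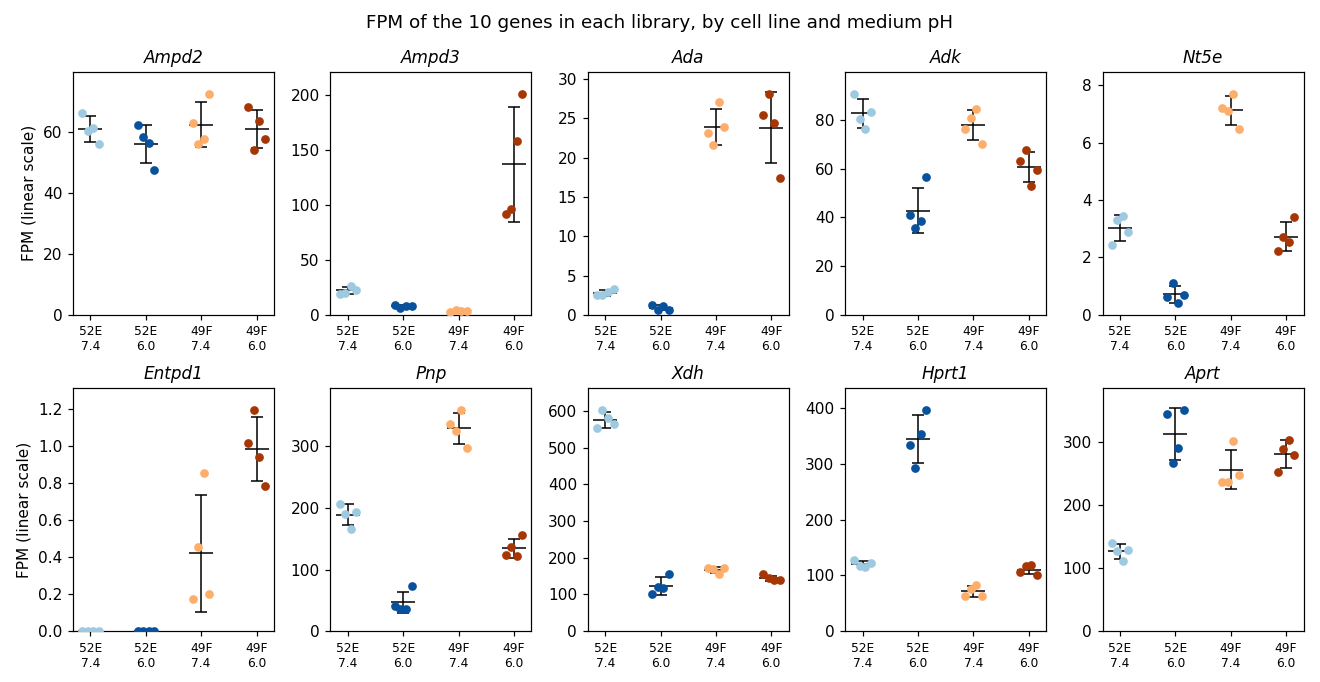
Levels of the 10 genes in FPM (linear y axis with its own scale in each panel) in the 4 groups of cell line and pH on the x axis. Each point is 1 library, and the black bars are the mean and SD of 4 libraries. Ampd3 reached 92.05 to 201.2 FPM in NRK-49F cells at pH 6.0 and stayed at or below 26.3 FPM elsewhere, and Entpd1 had 0 counts in all NRK-52E libraries.

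Of the other AMP deaminase genes, Ampd2, the isoform of many non-muscle tissues, stayed nearly level. Its levels were 66.3, 60.2, 61.2 and 56.1 FPM in NRK-52E at pH 7.4 and 62.3, 58.4, 56.5 and 47.4 FPM at pH 6.0. In NRK-49F they were 63.05, 56.1, 57.8 and 72.5 FPM at pH 7.4 and 68.4, 54.1, 63.6 and 57.7 FPM at pH 6.0. The pH groups overlapped in both lines, and neither the fold change in NRK-52E (log2 -0.14, SE 0.10, edgeR adjusted p = 0.238) nor that in NRK-49F (log2 -0.05, SE 0.11, edgeR adjusted p = 0.726) was called.

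Ampd1, the muscle isoform, is not among the 10 genes but completes the family. It had 0.4685, 0.533, 0.912 and 0.238 FPM in NRK-52E at pH 7.4, from 5 to 22 counts, and 17.9, 20.3, 19.7 and 15.9 FPM at pH 6.0. All NRK-52E libraries at pH 6.0 were thus above every library at pH 7.4 (log2 fold change 5.04, SE 0.29). Its NRK-49F levels were 0.400, 0.303, 0.198 and 0 FPM at pH 7.4, from 0 to 7 counts, and 3.45, 1.525, 1.365 and 1.28 FPM at pH 6.0. Here too the groups did not overlap, although N11 held 78 counts and the other libraries at pH 6.0 held 23 to 42. In both lines Ampd1 passed the filter on low counts only through its pH 6.0 libraries. This favoured a difference, and the calls of Ampd1 are not used as support.

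The share of each gene in the summed counts of the 3 genes was also taken. These shares are not corrected for gene length, so they are compared between libraries and not between genes. Ampd3 took 22.4% (N1), 25.0% (N2), 29.8% (N5) and 29.0% (N6) of AMP deaminase counts in NRK-52E at pH 7.4 and 9.90% (N3), 7.70% (N4), 9.71% (N7) and 11.6% (N8) at pH 6.0. In NRK-49F it took 4.23% (N9), 6.53% (N10), 5.57% (N13) and 4.63% (N14) at pH 7.4 and 56.2% (N11), 63.5% (N12), 70.9% (N15) and 77.3% (N16) at pH 6.0. The share of Ampd3 was thus lower at pH 6.0 in NRK-52E and higher in NRK-49F, and the pH groups of each line did not overlap. For the lowest of these libraries, N9, the 95% Wilson interval was 3.21% to 5.55%, and for the highest, N16, it was 76.4% to 78.2%; these intervals cover counting error only. Ampd1 took 22.4% ± 1.6 (SD, n = 4) in NRK-52E at pH 6.0, against 0.633% ± 0.30 at pH 7.4, and 1.05% ± 0.74 in NRK-49F at pH 6.0, against 0.357% ± 0.27. Ampd2 took the rest, 72.8% and 67.9% in NRK-52E and 94.4% and 32.0% in NRK-49F, at pH 7.4 and pH 6.0.

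**Figure D2:**
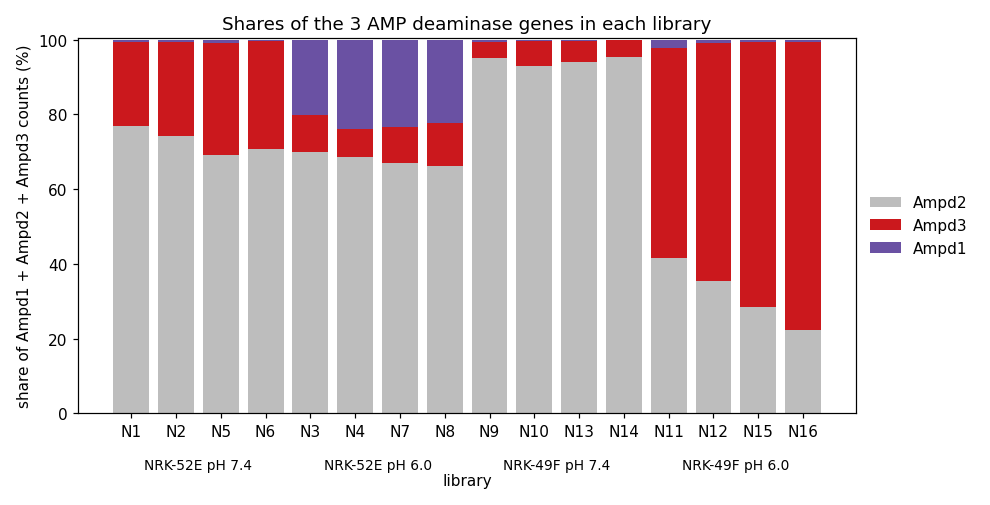
Share of the summed Ampd1, Ampd2 and Ampd3 counts (y axis, percent) that fell on each gene in every library (x axis, ordered by group). Each stacked bar is 1 library. Ampd3 holds 56.2% to 77.3% in the NRK-49F libraries at pH 6.0, and Ampd1 holds 20.1% to 23.8% in the NRK-52E libraries at pH 6.0.

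Among the 9 genes other than Ampd3, 7 were called in NRK-52E cells, 2 higher and 5 lower at pH 6.0. Entpd1 had no counts there, so 8 passed the filter on low counts. Of these, Nt5e passed only through its pH 7.4 libraries, which favoured a difference. The call of Nt5e, among the 5 lower, is not used as support. Over all 13735 genes tested in NRK-52E, 56.7% were called, 28.2% higher and 28.5% lower. The median log2 fold change of the 8 genes, Nt5e included, was -1.31, beside 0 over all genes. In NRK-49F cells the 9 passed the filter, Entpd1 only through its pH 6.0 libraries, and 3 were called, 1 higher and 2 lower, against a background of 37.8% of 13339 genes, 18.4% higher and 19.4% lower. Their median was -0.05. Being called was therefore common among all genes, and these counts alone do not set the 9 genes apart.

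Outside cells, the product of Entpd1 (CD39) hydrolyses ATP and ADP to AMP, and that of Nt5e (CD73) turns AMP into adenosine. Entpd1 had 0 counts in all 8 NRK-52E libraries. In NRK-49F it had 0.172, 0.455, 0.856 and 0.198 FPM at pH 7.4 and 1.02, 1.19, 0.942 and 0.782 FPM at pH 6.0, all from 3 to 29 counts. The highest library at pH 7.4 lay inside the range at pH 6.0, and the log2 difference of 1.25 (SE 0.47) was not called (edgeR adjusted p = 0.0397), but was called without N13 (log2 1.80). Against a floor of 3 counts per library in NRK-52E, Entpd1 was at least 3.17-fold higher in NRK-49F at pH 7.4 and at least 6.76-fold higher at pH 6.0. The bound at pH 7.4 rests largely on N13 (0.856 FPM), and N9 held 3 counts, the floor itself. Entpd1 passed the filter at pH 6.0 only through NRK-49F, which favoured a difference. Its call there is left out of the number of calls at pH 6.0.

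Nt5e fell in both lines. Its levels in NRK-52E were 2.44, 3.32, 3.44 and 2.90 FPM at pH 7.4 and 0.612, 1.12, 0.410 and 0.705 FPM at pH 6.0, where each library held 10 to 25 counts and 3 of the 4 reached the cutoff of the filter. In NRK-49F they were 7.20, 7.125, 7.70 and 6.48 FPM at pH 7.4 and 2.21, 2.72, 2.53 and 3.41 FPM at pH 6.0. Within each line the pH groups did not overlap. In NRK-52E the log2 fold change was -2.10 (SE 0.31, edgeR adjusted p = 0.000123). That call is not used as support, because Nt5e passed the filter there only through pH 7.4. In NRK-49F it was -1.40 (SE 0.19, edgeR adjusted p = 8.12e-05). The difference of 0.71 (SE 0.35) between these effects was not called (edgeR adjusted p = 0.0931). In the RefSeq annotation of GRCr8, a later build than that of the counts, Nt5e overlaps Snx14. The counting options given name no strand setting, so fragments of these genes might not be told apart. Snx14 had 28.8 and 33.5 FPM in NRK-52E and 36.0 and 59.6 FPM in NRK-49F, at pH 7.4 and pH 6.0. The part of this overlap in the counts of Nt5e was not tested.

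Adenosine itself is either deaminated by the product of Ada or phosphorylated by that of Adk. Ada was low in NRK-52E, with 2.58, 2.50, 2.86 and 3.33 FPM at pH 7.4 and 1.28, 0.584, 1.11 and 0.658 FPM at pH 6.0, the latter from 13 to 27 counts. It fell there (log2 -1.66, SE 0.29, edgeR adjusted p = 0.000424), with no overlap between the groups. The NRK-49F libraries had 23.2, 21.6, 27.1 and 24.0 FPM at pH 7.4 and 25.5, 28.1, 24.4 and 17.4 FPM at pH 6.0. These groups overlapped, the log2 difference was -0.02 (SE 0.15, edgeR adjusted p = 0.906), and its sign turned without N13 or N16, with library totals and within number 20. The pH effects on Ada differed between the lines by 1.65 (SE 0.30, edgeR adjusted p = 0.000176).

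Adk had 90.8, 80.5, 76.4 and 83.25 FPM in NRK-52E at pH 7.4 and 40.9, 35.5, 38.4 and 56.6 FPM at pH 6.0, with N8 the highest at pH 6.0. It fell there (log2 -0.96, SE 0.15, edgeR adjusted p = 0.000179). Levels in NRK-49F were 76.4, 81.1, 84.6 and 70.25 FPM at pH 7.4 and 63.3, 67.6, 52.9 and 59.5 FPM at pH 6.0. These groups did not overlap either, but the log2 difference of -0.38 (SE 0.11) passed DESeq2 (adjusted p = 0.00658) and not edgeR (adjusted p = 0.0116). It was called as lower in 3 of 14 refits, among them those without N12 (-0.44) and N14 (-0.43). The pH effects on Adk differed by 0.60 (SE 0.18, edgeR adjusted p = 0.00962), a call that held in only 5 of 21 refits and was lost without any single library other than N8, N13 or N15 (0.52 to 0.70), with edgeR adjusted p between 0.00015 and 0.0229.

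The ratio of Ada to Adk counts, whose own size depends on gene length, was read only between libraries. On the log2 scale it averaged -4.88 ± 0.23 (SD, n = 4) in NRK-52E at pH 7.4 and -5.61 ± 0.68 at pH 6.0, and these groups overlapped. In NRK-49F it averaged -1.71 ± 0.15 and -1.37 ± 0.28, again with overlap. The lines were far apart at both pH values, since all NRK-49F libraries were above -1.91 or at it and all NRK-52E libraries at or below -4.64.

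Pnp and Xdh, whose products free hypoxanthine and oxidise it, were both lower in NRK-52E at pH 6.0. Pnp had 207, 190, 166 and 193 FPM at pH 7.4 and 40.5, 36.3, 36.2 and 72.9 FPM at pH 6.0 in NRK-52E, the last in N8. In NRK-49F it had 336.5, 326, 359 and 298 FPM at pH 7.4 and 124, 137, 123 and 155.5 FPM at pH 6.0. Pnp fell without overlap in both lines, by -2.04 (SE 0.22, edgeR adjusted p = 1.47e-05) and -1.31 (SE 0.11, edgeR adjusted p = 1.61e-06) on the log2 scale. The difference of 0.75 (SE 0.24) between these effects was not called (edgeR adjusted p = 0.0159, DESeq2 adjusted p = 0.00931), but was called without N8 (1.06) and with library totals (0.99).

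Xdh had 552, 602, 580 and 564 FPM in NRK-52E at pH 7.4 and 100.6, 119, 116 and 155.5 FPM at pH 6.0. In NRK-49F it had 171, 169, 154.3 and 171 FPM at pH 7.4 and 154.4, 144, 139 and 140.3 FPM at pH 6.0. Xdh fell in NRK-52E (log2 -2.24, SE 0.13, edgeR adjusted p = 2.99e-07) to a level close to that of NRK-49F. In NRK-49F the pH groups met at 154.3 and 154.4 FPM, and the log2 difference of -0.22 (SE 0.08) was not called (edgeR adjusted p = 0.0404). The pH effects of the lines differed by 2.04 (SE 0.15, edgeR adjusted p = 1.09e-08).

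Hprt1 and Aprt went the other way in NRK-52E. Hprt1, whose product returns hypoxanthine and guanine to nucleotides, had 128, 117, 115 and 123 FPM at pH 7.4 and 334, 293, 354 and 396 FPM at pH 6.0. In NRK-49F it had 63.0, 76.3, 82.7 and 62.4 FPM at pH 7.4 and 106, 116, 118 and 101.3 FPM at pH 6.0. Hprt1 rose in both lines without overlap, by 1.50 (SE 0.11, edgeR adjusted p = 7.68e-07) and 0.62 (SE 0.11, edgeR adjusted p = 0.000733), and the effect was smaller in NRK-49F by 0.86 on the log2 scale (interaction -0.86, SE 0.15, edgeR adjusted p = 0.00014).

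Aprt, whose product salvages adenine, had 140, 127, 112 and 128 FPM in NRK-52E at pH 7.4 and 345, 266, 291 and 351 FPM at pH 6.0. The levels in NRK-49F were 237, 237, 302 and 248 FPM at pH 7.4 and 252.5, 288.5, 304 and 280 FPM at pH 6.0. Aprt rose in NRK-52E (log2 1.29, SE 0.12, edgeR adjusted p = 4.26e-06), whereas the groups overlapped in NRK-49F and the log2 difference of 0.12 (SE 0.11) was not called (edgeR adjusted p = 0.362). The difference between the effects was -1.16 (SE 0.16, edgeR adjusted p = 1.03e-05).

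With Xdh lower and Hprt1 higher in NRK-52E, the log2 ratio of their counts moved from 2.25 ± 0.12 (SD, n = 4) at pH 7.4 to -1.50 ± 0.20 at pH 6.0. In NRK-49F it moved from 1.24 ± 0.26 to 0.39 ± 0.14. The pH groups of each line did not overlap in this ratio, which was not tested. RefSeq lists a pseudogene each for Adk, Pnp and Xdh and 3 for Hprt1, and fragments that map to several places were counted at each, so the counts of these 4 genes are uncertain to that extent. Adk also overlaps Ap3m1 in that annotation. Ap3m1 had 32.2 and 62.2 FPM in NRK-52E and 40.6 and 41.3 FPM in NRK-49F, at pH 7.4 and pH 6.0. Whether the overlap has a part in the counts of Adk was not tested.

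**Figure D3:**
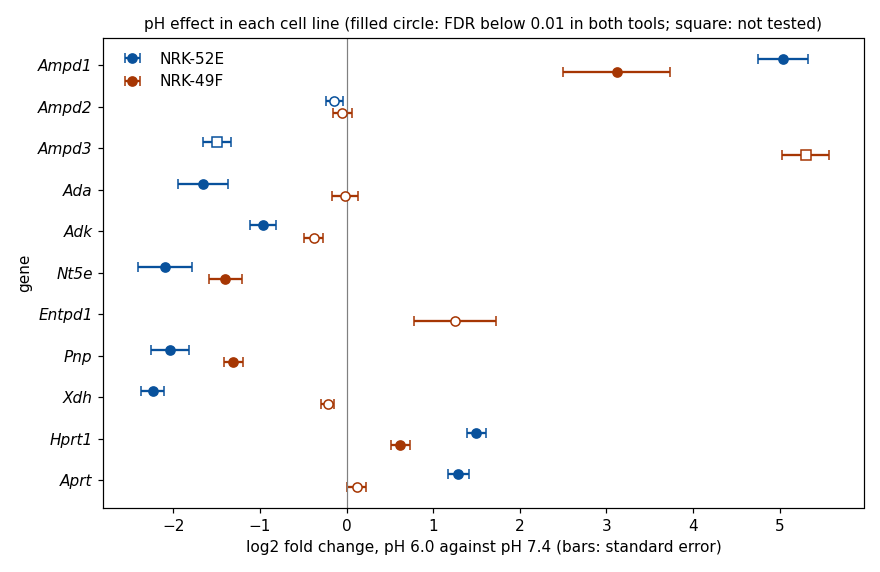
Log2 fold change at pH 6.0 against pH 7.4 (x axis) of Ampd1 and the 10 genes (y axis) in NRK-52E (blue) and NRK-49F (brown) cells, with bars for the standard error over 8 libraries. Filled circles are called, open circles are not, and Ampd3, shown by squares, was not tested. Ampd3 lies at -1.50 for NRK-52E and at 5.30 for NRK-49F. Entpd1 has no value in NRK-52E.

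Taken as differences between the lines in their pH effect, 5 of the 8 genes with a value were called, where Entpd1 has no value because of its 0 counts in NRK-52E. Ada, Adk and Xdh had the more positive effect in NRK-49F, and Hprt1 and Aprt the more positive effect in NRK-52E. Over all 14679 genes tested, 36.9% were called, 17.5% with the more positive effect in NRK-49F and 19.3% with the more negative one.

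The lines were also compared at each pH. At pH 7.4, 6 of the 8 genes that passed the filter were called, beside 66.6% of 14026 genes, of which 33.3% were higher and 33.3% lower in NRK-49F. Ada stood highest in NRK-49F relative to NRK-52E, at 8.02-fold (SE 0.14 on the log2 scale, edgeR adjusted p = 3.82e-09). On the log2 scale, Nt5e (1.15, SE 0.16), Aprt (0.93, SE 0.10) and Pnp (0.72, SE 0.09) were also higher, and Xdh (-1.87, SE 0.07) and Hprt1 (-0.85, SE 0.10) were lower. Ampd2 and Adk, at -0.05 and -0.17, were not called and their groups overlapped, but both were called as lower with library totals in place of TMM factors (-0.35 and -0.47).

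At pH 6.0, 4 of the 8 genes other than Entpd1 were called, where 59.8% of 13796 genes were called, 31.3% higher and 28.6% lower in NRK-49F. Ada was again higher in NRK-49F, by 4.74 on the log2 scale or 26.7-fold (SE 0.28 on the log2 scale, edgeR adjusted p = 2.06e-08), as were on that scale Nt5e (1.94, SE 0.34) and Pnp (1.55, SE 0.21), and Hprt1 was lower (-1.63, SE 0.12). Of these, Nt5e, counted among the 4, passed the filter only through NRK-49F. Its call, like that of Entpd1, was thus favoured by the filter and is not used as support. Xdh (0.25, SE 0.13, edgeR adjusted p = 0.104) and Aprt (-0.14, SE 0.12, edgeR adjusted p = 0.312), which were called at pH 7.4, were not called at pH 6.0. Xdh was called without N8 (0.39). Adk was at 0.52 (SE 0.16), with adjusted p = 0.00987 in edgeR and 0.0104 in DESeq2, and was called in 4 of 14 refits, among them those without N8 (0.69), without N15 (0.59) and with all 16 libraries in one fit (0.52).

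The other genes of purine metabolism were taken from 10 lists of 73 genes, of which 63 are not among the 10 genes and 60 of these were matched in the table. In NRK-52E, 43 were tested, and 13 were called higher, 13 lower and 17 not called, and the median on the log2 scale was -0.07. In NRK-49F, 42 were tested, and 21 were called higher, 6 lower and 15 not called, with a median of 0.44. Over all genes, 56.7% were called in NRK-52E (28.2% higher and 28.5% lower) and 37.8% in NRK-49F (18.4% higher and 19.4% lower). The list genes of NRK-52E were thus close to all genes, and whether those of NRK-49F differ from all genes was not tested. In the interaction test, 14 of 46 list genes had the more positive effect in NRK-49F and 3 the more negative one, beside 17.5% and 19.3% of all genes, and this split was not tested. Some list genes passed the filter through 1 group only, which favours a difference. Of the genes named below these were Adss1, Gmpr, Nt5c, Nt5c1b, Alpl and Ak8, each in NRK-52E. Gmpr and Alpl are among the 14 of the interaction test, and Adss1 is among the 3, so that split is not used as support.

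In the purine nucleotide cycle and GMP branch, where IMP is turned back to AMP or on to GMP, 6 of 8 genes rose and 2 fell in NRK-52E (56.7% of all genes called), and 5 rose and 1 fell in NRK-49F (37.8% of all genes called). The numbers for NRK-52E include the rise of Adss1 and the fall of Gmpr, which the filter favoured and which are not used as support. Adss1, the muscle-type adenylosuccinate synthetase that acts beside AMP deaminase in this cycle, had 0.287 to 0.656 FPM in NRK-52E at pH 7.4, from 7 to 14 counts, and 10.8 to 15.4 FPM at pH 6.0. The log2 fold change was 5.04 (SE 0.27), but Adss1 passed the filter there only through the pH 6.0 libraries. In NRK-49F it rose from 1.44 FPM ± 0.199 to 4.12 FPM ± 0.514 (SD, n = 4; log2 1.51, SE 0.22, edgeR adjusted p = 0.000149). The effects differed by -3.52 (SE 0.34), which includes the rise in NRK-52E and so is not used as support either. Gmps, which makes GMP, rose in both lines (1.45, SE 0.08, and 0.79, SE 0.09), as did Impdh1, which leads to it (0.76, SE 0.11, and 0.74, SE 0.16). Gmpr, which returns GMP to IMP, fell by 2.08 on the log2 scale in NRK-52E (SE 0.36), where 3 of the 4 libraries at pH 6.0 reached the cutoff of the filter. In NRK-49F it was not called (0.44, SE 0.18) but was called as higher without N16 (0.59).

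In the list for extracellular ATP and ADP hydrolysis, 1 of 5 tested genes rose in NRK-52E, and 3 rose and 1 fell in NRK-49F, where 56.7% and 37.8% of all genes were called. The list also holds enzymes inside cells, such as Entpd5, so these numbers are not of extracellular enzymes alone. Entpd5, a nucleoside diphosphatase of the secretory pathway, had 19.3 to 22.7 FPM in NRK-52E at pH 7.4 and 92.7 to 126.5 FPM at pH 6.0, and 86.6 to 101.9 FPM and 417 to 714 FPM in NRK-49F. It rose to a like extent in both (2.42, SE 0.12, and 2.51, SE 0.16), with a difference of 0.10 (SE 0.20) that was not called (edgeR adjusted p = 0.721). Entpd4 (1.41, SE 0.08) and Enpp1 (edgeR adjusted p = 0.000658) rose in NRK-49F, and the effects of pH on both differed between the lines (1.57, SE 0.15, and 1.09, SE 0.24).

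Among 5'-nucleotidases and phosphatases, 5 of 8 tested genes fell and none rose in NRK-52E, beside 28.5% lower and 28.2% higher over all genes. Of these, Nt5c, Nt5c1b and Alpl passed the filter only through pH 7.4, which favoured a fall. Nt5c1b had 12 to 17 counts at pH 7.4 and 0 to 3 at pH 6.0, and Alpl 14 to 25 and 0 to 6. The number of falls is therefore not used as support. In NRK-49F 1 rose and 3 fell of 6, beside 18.4% higher and 19.4% lower. Nt5c (-1.84, SE 0.52, and -0.68, SE 0.12) and Nt5c3a (-0.73, SE 0.20, and -0.60, SE 0.13) were called as lower in both lines. In NRK-52E at pH 6.0 Nt5c rested on 3 to 22 counts per library, with N8 the highest and the only library to reach the cutoff of the filter. There its log2 fold change ranged from -2.84 (without N8) to -1.55 over the libraries left out, and its call was lost without any single library other than N8. The call of Nt5c3a in NRK-52E was lost without any single library other than N5 or N8 (range over all 8 left out -0.92 to -0.64). Acp3, listed in the table under the older symbol Acpp, moved in opposite directions. It went from 58.65 FPM ± 5.44 to 37.1 FPM ± 5.75 in NRK-52E (log2 -0.68, SE 0.13) and from 10.98 FPM ± 3.31 to 23.3 FPM ± 2.37 in NRK-49F (log2 1.07, SE 0.20), with a difference of 1.76 (SE 0.25, edgeR adjusted p = 1.42e-05).

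In adenosine and adenine handling, Adal, an adenosine deaminase-like gene, and Mtap, whose product frees adenine from methylthioadenosine, fell in NRK-52E. Adal had 19.5 to 22.3 FPM at pH 7.4 and 2.26 to 8.32 FPM at pH 6.0 (log2 -2.06, SE 0.30), and Mtap had 126 to 134 FPM and 41.5 to 66.0 FPM (log2 -1.29, SE 0.14). In NRK-49F neither was called, and their pH effects differed between the lines by 1.75 (SE 0.37) and 1.43 (SE 0.17). Ahcy, which splits S-adenosylhomocysteine into adenosine and homocysteine, rose in NRK-49F (0.60, SE 0.08).

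Of the nucleoside transporters, Slc29a1, the equilibrative transporter of the plasma membrane, rose in both lines (1.20, SE 0.14, and 0.80, SE 0.16), and Slc29a3, an intracellular one, fell in both (-0.63, SE 0.12, and -0.75, SE 0.12). Slc28a2, a sodium-coupled purine nucleoside transporter, rose in NRK-49F from 6.77 to 9.61 FPM at pH 7.4 to 14.9 to 31.6 FPM at pH 6.0 (log2 1.64, SE 0.24). Only Adora2b of the 4 adenosine receptor genes was tested, and it was not called in NRK-52E (-0.81, SE 0.43) or in NRK-49F (0.23, SE 0.17). Of the purine base degradation genes outside the 10, none was tested in NRK-52E, and Gda alone was tested in NRK-49F and not called (-0.06, SE 0.32).

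Of the adenylate kinases, which balance AMP, ADP and ATP, 2 rose and 1 fell of 6 tested in NRK-52E, beside 56.7% called over all genes, and 3 rose and none fell of 5 in NRK-49F, beside 37.8%. In NRK-52E, Ak6 rose by 0.57 (SE 0.12) and Ak3 fell (-0.74, SE 0.12). The other rise was that of Ak8 (2.37, SE 0.38), which had 7 to 17 counts at pH 7.4. Ak8 passed the filter only through the pH 6.0 libraries, which favoured a rise, and is not used as support. Ak4 rose by 1.69 (SE 0.27) and Ak6 by 0.62 (SE 0.15) in NRK-49F. The calls of Ak6 were lost in NRK-52E without N2 or N5 (range over all left out 0.50 to 0.64) and in NRK-49F without N9, N10, N12, N14 or N15 (0.55 to 0.77). In the synthesis of IMP from small precursors, 2 of 7 genes rose and 2 fell in NRK-52E (56.7% of all genes called), and 5 rose and none fell in NRK-49F (37.8%). In the interaction test, only Ppat and Pfas of the 7 were called as differing between the lines. Ppat, which catalyses the committed step, rose in NRK-49F from 18.4 FPM ± 1.39 to 46.05 FPM ± 1.37 (log2 1.31, SE 0.10), and Prps1 rose in both lines (0.55, SE 0.11, and 0.84, SE 0.09). Pfas fell in NRK-52E (-0.89, SE 0.10) and rose in NRK-49F (0.82, SE 0.12), and Paics was called as lower in NRK-52E (-0.48, SE 0.13), a call lost without any single library other than N5 or N8 (range over all 8 left out -0.62 to -0.41).

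The genes whose pattern over the 16 libraries was most like that of Ampd3 were sought by Pearson's r on log2(FPM + 1) among 13104 genes. These were Blm (0.960), Hells (0.948), Rttn (0.943), Mcm8 (0.939) and Selenoi (0.934). The most opposite were Chrd (-0.967), Sh3gl1 (-0.965) and H1f2 (-0.957). Blm averaged 9.06 and 7.71 FPM in NRK-52E and 5.78 and 18.7 FPM in NRK-49F at pH 7.4 and pH 6.0, and so had the order of Ampd3 with a smaller range. Libraries of a group share line and pH, so these values describe a pattern over 4 groups. With Spearman's rho, 1 of the 5 most like genes was shared. The 9 other genes of the set did not follow Ampd3 closely, with r between -0.18 for Nt5e and 0.55 for Entpd1, which is at 0 in NRK-52E.

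In GRCr8, Ampd3 overlaps the long non-coding RNA gene LOC103691204 and lies between Adm and rnf141. With no strand setting named, fragments of Ampd3 and LOC103691204 might not be told apart. LOC103691204 was not matched by symbol in the count table, and the part of this overlap in the counts of Ampd3 was not tested. Adm had 49.7 FPM in NRK-49F at pH 7.4 and 205 FPM at pH 6.0 (log2 2.03, SE 0.10) and at most 0.0351 FPM on average in NRK-52E, and rnf141 had log2 fold changes of 0.70 (SE 0.12) in NRK-49F and 0.47 (SE 0.17) in NRK-52E. These neighbours were looked up after the values were seen.

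Promoters were taken from RefSeq (GRCr8), where 9 of the 10 genes matched an entry and Ampd3 had none. The search was meant for Ampd3, and the other promoters were added after the values were seen. The 250 bases before each start were searched on both strands for the antioxidant response element core TGACNNNGC, the AP-1 site TGANTCA, the cAMP response element TGACGTCA, the E-box CACGTG and the hypoxia response element core GCGTG. No match overlapped a match of another motif in the promoters shown. Shown are Hprt1 and Aprt, which both rose in NRK-52E, and Nt5e and Pnp, which fell in both lines, with matches to GCGTG in capitals.
Hprt1, chrX:137655494-137655743 (plus strand): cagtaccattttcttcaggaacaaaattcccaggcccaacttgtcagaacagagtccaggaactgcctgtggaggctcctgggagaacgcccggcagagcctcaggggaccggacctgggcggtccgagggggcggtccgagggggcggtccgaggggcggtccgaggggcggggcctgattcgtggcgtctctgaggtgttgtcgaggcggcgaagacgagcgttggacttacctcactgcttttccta
Aprt, chr19:67537028-67537277 (minus strand): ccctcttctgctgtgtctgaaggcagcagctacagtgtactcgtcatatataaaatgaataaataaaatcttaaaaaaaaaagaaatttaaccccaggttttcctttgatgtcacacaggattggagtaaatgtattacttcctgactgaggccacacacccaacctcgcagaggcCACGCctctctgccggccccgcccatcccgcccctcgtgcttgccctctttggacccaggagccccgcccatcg
Nt5e, chr8:98150675-98150924 (plus strand): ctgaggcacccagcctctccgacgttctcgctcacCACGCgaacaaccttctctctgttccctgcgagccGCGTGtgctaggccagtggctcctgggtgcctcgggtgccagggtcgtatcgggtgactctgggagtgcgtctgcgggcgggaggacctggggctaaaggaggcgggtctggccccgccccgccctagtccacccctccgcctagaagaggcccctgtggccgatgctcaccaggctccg
Pnp, chr15:26643897-26644146 (plus strand): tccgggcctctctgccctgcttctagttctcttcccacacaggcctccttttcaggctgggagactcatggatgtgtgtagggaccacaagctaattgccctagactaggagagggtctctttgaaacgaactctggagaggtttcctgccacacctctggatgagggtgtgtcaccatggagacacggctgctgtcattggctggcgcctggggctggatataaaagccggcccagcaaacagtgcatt
The bases shown for Aprt overlap the annotated span of Galns and those for Nt5e that of Snx14, whereas those for Hprt1 and Pnp overlap no annotated gene. GCGTG was found in 3 of the 9 promoters (Ada, Nt5e and Aprt), starting 32 bases before the start in Ada, 74 in Aprt and 215 and 180 in Nt5e, and in 25.9% of all 33469 promoters. TGACNNNGC was in none of the 9 and in 10.1% of all promoters, TGANTCA in none and 6.34%, TGACGTCA in none and 1.59%, and CACGTG in none and 5.59%. A match is only a run of letters, and its absence says nothing about a factor.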

How the data were processed

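RNA was measured in 16 co-culture libraries of NRK-52E and NRK-49F cells. The authors enriched poly(A) RNA, sequenced read pairs, mapped them to rn6 and counted exon fragments per Ensembl gene with featureCounts, where fragments mapping to several places were counted too. The methods name tophat2 and the submitters' processing notes HISAT2 2.1.0, and which made these counts is not known here. Raw counts were deposited without normalization. The counting options given name no strand setting.

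FPM were computed from the counts with TMM factors. Each comparison was fitted on its own libraries with edgeR 4.0.16 (quasi-likelihood test, filterByExpr, TMM) and DESeq2 1.42.0 (Wald test) in R 4.3.3, with Benjamini-Hochberg adjustment. Log2 fold changes are from edgeR, and SE is their size over the root of F. No 2 libraries of a group were duplicates (chi-square per degree of freedom at least 6.12).

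The genes and lists were chosen with earlier results of these data known. From each list, up to 3 called genes per line with the largest change, reaching 1 FPM in a group, are named, with some left out. Nt5c1b and Alpl, below 1 FPM on average in every group, are named only for how they passed the filter. Urah, Allc and Ak1 were not matched.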

Additional observations from a re-analysis of the deposited data

Results flagged for a closer look

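The opposite pH changes of Ampd3 are left out here because they chose the genes. In 54 combinations of a value and a group, 3 libraries lay far from the other 3, where chance gives about 1 in 20. These were N8 for Pnp in NRK-52E at pH 6.0 (72.92 FPM, above the others), N13 for Xdh in NRK-49F at pH 7.4 (154.3 FPM, below the others) and N11 for Ampd1 in NRK-49F at pH 6.0 (3.454 FPM, above the others).

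The pH effects of the 2 lines differed by the interaction test for 5 of the 8 genes with a value, beside 36.9% of all genes. As NRK-49F minus NRK-52E on the log2 scale, the difference was 1.65 for Ada, 0.60 for Adk, 2.04 for Xdh, -0.86 for Hprt1 and -1.16 for Aprt. That of Adk rests on an edgeR adjusted p of 0.00962 (range over refits 0.00015 to 0.0229).

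Of 26 other genes of purine metabolism, named because they were called within a line, 14 had such a difference. Over all 46 list genes tested, 14 had the more positive and 3 the more negative effect in NRK-49F, beside 17.5% and 19.3% of all genes. Among the 26 genes it was more positive in NRK-49F for Gmpr (2.54), Ak4 (1.79), Acp3 (1.76), Adal (1.75), Pfas (1.72), Slc28a2 (1.62), Entpd4 (1.57), Mtap (1.43), Ppat (1.11), Enpp1 (1.09), Ahcy (0.88) and Ak3 (0.61). It was more negative for Adss1 (-3.52) and Gmps (-0.65). The changes of Gmpr and Adss1 within NRK-52E were favoured by the filter on low counts, so their differences are not used as support. Gmpr and Adss1 are also in the counts over the 46 genes, as is Alpl, for which the same holds. Acp3 and Pfas were called in both lines with opposite signs.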

How the results depend on the processing

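In NRK-52E, the number of the 9 genes called was 7 under every alternative that used both library numbers. In NRK-49F it was 3 to 4, except at an FDR below 0.05 in both tools, where it was 6 because the threshold is looser. Within a second library number, an alternative chosen after seeing the data with 2 libraries per pH, the number was 5 for number 21 and 4 for number 22 in NRK-52E, with 5244 and 2820 of all genes called, and 3 for number 20 and 1 for number 21 in NRK-49F, with 4680 and 1980, with fewer samples in each fit. With one library left out, the number called was 7 in NRK-52E, 3 to 4 in NRK-49F, 4 to 6 for the difference between the pH effects, and 6 between the lines at pH 7.4. Between the lines at pH 6.0, Adk (0.69) and Xdh (0.39) gained a call without N8, and Adk (0.59) without N15.

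Of 790 log2 fold changes of the 10 genes under alternatives, 23 lost a call, 15 gained one and no called value changed sign, while 8 values that were not called, of Ampd2 and Ada, took the other sign. Of 904 values of the other named genes, 55 lost a call and 6 gained one. Most of the lost calls among the 10 genes were the difference in pH effect of Adk.

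Library totals in place of TMM factors took the median over all genes, on the log2 scale, to -0.21 in NRK-52E, 0.04 in NRK-49F, 0.25 for the difference between the pH effects, and -0.34 and -0.12 between the lines at pH 7.4 and pH 6.0. The higher share of calls moved from 49.7% to 37.6% in NRK-52E, from 47.6% to 66.2% for the difference and from 50.0% to 34.3% between the lines at pH 7.4. With a pseudocount of 0.1, all 5 genes most like Ampd3 were shared, and with Spearman's rho 1 was. No paired analysis was possible because the labels mark no pairs, and the second number, shared by 2 libraries of each pH in a line, has no stated meaning. With that number as a covariate, the genes called of the 9 were 7 in NRK-52E, 4 in NRK-49F, 4 for the difference between the pH effects, and 6 between the lines at pH 7.4. Each change was Adk, with -0.38 (gained) in NRK-49F, 0.61 (lost) for the difference and 0.52 (gained) at pH 6.0. Depth limits Entpd1, Nt5c in NRK-52E, Ampd1 at pH 7.4 and, in NRK-52E at pH 6.0, Ada and Nt5e, which rest on few counts.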
